A study of Mus musculus with 10 samples.

Results

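The 7 genes described here, Kcnq1, Kcne1, Slc12a2, Bsnd, Atp1b1, Atp1b2 and Kcnj10, encode the transporters and channels with which the stria vascularis of the cochlea secretes potassium into endolymph. They were taken by mouse symbol from a table of 54532 genes. All 7 were found, and all 7 were among the 17937 genes with enough counts to be tested. Messenger RNA was read from the cochlear soft tissue of female mice on postnatal day 1, both ears of an animal forming 1 library. The 5 control libraries were Esrrgfl/fl, meaning that both copies of Esrrg, the gene of the nuclear receptor estrogen-related receptor gamma, carry loxP sites. The 5 libraries labelled cKO were Esrrgfl/fl;Sox10-Cre and so add a Cre recombinase under control of Sox10, a gene active in the otic epithelium, in glia and in the melanocyte lineage that gives strial intermediate cells. No animal received a treatment according to the labels, all 10 libraries share the loxP alleles, no group with Cre alone was analysed here, and the strain is not given in the sources used here.

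Endolymph, the fluid that bathes the tips of the hair cells, is rich in potassium and is held at a positive voltage. Marginal cells of the stria take up potassium from the intrastrial space through the cotransporter encoded by Slc12a2 (NKCC1) and through the sodium pump, whose beta subunits include the products of Atp1b1 and Atp1b2. Chloride that enters with potassium leaves again through channels that need barttin, the product of Bsnd, and potassium passes into endolymph through the apical channel formed by KCNQ1 and its accessory subunit KCNE1. Intermediate cells carry the potassium channel KCNJ10 (Kir4.1), which generates the voltage. Several of these genes are also used outside the stria, Kcnj10 in glia and supporting cells, Atp1b1 in neurons, and Slc12a2 in fibrocytes of the spiral ligament.

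The libraries held 33487089 to 41779836 counts, and every member had at least 487 counts in every library. Esrrg, the targeted gene, was higher under the cKO label, against the direction of a knockout: it measured 48.5 to 64.7 CPM (counts scaled to a common library size with TMM factors) in the controls and 70.7 to 109 CPM in the libraries labelled cKO, a log2 fold change of 0.62 (SE 0.117, edgeR adjusted p = 0.0259). A count summed over the whole gene cannot tell whether the loxP-flanked segment was removed. The second group is therefore named by its label throughout, and every direction given depends on it. Control 2 stood apart from the other controls in 2 summed lists used below, where chance gives about 2.4 such cases over the groups examined. The tissue is whole cochlear soft tissue, so fewer cells of a type and less RNA per cell cannot be told apart in any result here. Counts were found for every listed marker of the strial cell types: none of the 8 marginal, 12 intermediate and melanocyte, or 4 basal cell markers was at 0 in all 10 libraries. In whole tissue this does not show that each cell type was present.

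On the scale of FPKM, which divides by gene length and allows genes to be compared, the members spanned a wide range on postnatal day 1. Slc12a2 was the most abundant at 101 ± 10.5 FPKM (SD, n = 10 libraries), above 98.1% of tested genes. Atp1b1 followed at 65.0 ± 7.44 FPKM and Atp1b2 at 43.5 ± 6.11 FPKM. The channel subunits came next, Kcne1 at 28.0 ± 4.22 FPKM and Kcnq1 at 13.01 ± 1.95 FPKM. Bsnd, at 6.21 ± 0.839 FPKM, and Kcnj10, at 5.03 ± 0.961 FPKM, lay near the middle of the tested genes, above 58.3% and 52.9% of them. Each gene exceeded the next one down in 10 of 10 libraries, except that Bsnd exceeded Kcnj10 in only 7. The ranges over libraries did not overlap between neighbours in this order, apart from Atp1b2 with Kcne1 and Bsnd with Kcnj10, and the order was the same with any 1 library left out.

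**Figure D1:**
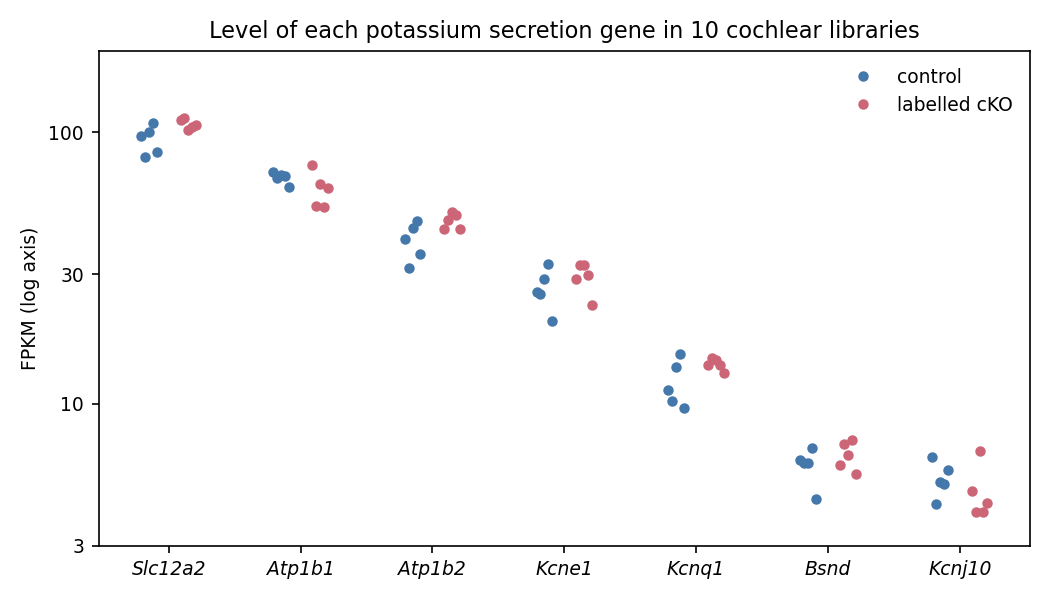
FPKM of each member (log axis) in the 10 libraries, ordered by mean level; each point is a library, blue for control and red for the libraries labelled cKO. Slc12a2 lies highest, between 81.5 and 113 FPKM, and Bsnd and Kcnj10 share the range below 7.4 FPKM.

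The question for the genotype comparison was whether any of the 7 genes differed between the labels. None was called: 0 of 7 had an edgeR adjusted p under 0.05, where 0.619% of all tested genes did (0.546% lower and 0.0725% higher for the cKO label). Kcnq1, Kcne1, Slc12a2, Bsnd and Atp1b2 had positive log2 fold changes and Kcnj10 and Atp1b1 negative ones, none beyond 0.24 in size. The share of tested genes with a positive log2 fold change was 48.3%. The median over the members was 0.14, and that over all tested genes was -0.01. Only Atp1b2 had an unadjusted p under 0.05, as did 9.65% of all tested genes and, in its direction (higher), 4.13%, and no member separated the genotypes without overlap in CPM, as 2.84% of tested genes did. DESeq2 and limma-voom called 0 of the 7 as well. Intervals given below are 95% intervals of a single gene's fold change and are not adjusted for the number of genes.

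The apical channel subunits Kcnq1 and Kcne1 were described first. Kcnq1 (ENSMUSG00000009545; GRCm38 chromosome 7, 143106362 to 143427042, plus strand) encodes the pore-forming subunit. It measured 46.2, 42.7, 56.2, 62.9 and 40.1 CPM in controls 1 to 5 and 57.0, 60.3, 59.5, 57.0 and 54.1 CPM in the libraries labelled cKO in the same order. The controls were spread over a wide range and the other group lay inside its upper part: all 5 libraries labelled cKO exceeded the control median, and 0 exceeded the control maximum. The log2 fold change was 0.21 (SE 0.113, interval -0.03 to 0.46, edgeR adjusted p = 0.579), and 0.10 with limma-voom. Kcnq1 shares 121 bases of exon with Kcnq1ot1, a long noncoding RNA on the opposite strand that was low, at 0.127 ± 0.0406 FPKM.

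Kcne1 (ENSMUSG00000039639; chromosome 16, 92345982 to 92359468, minus strand) encodes the single-pass subunit that slows the opening of the KCNQ1 channel. Controls 1 to 5 held 82.9, 83.2, 93.0, 105 and 65.8 CPM, and the libraries labelled cKO held 93.1, 104, 104, 96.5 and 75.8 CPM. The groups overlapped over most of their ranges, and library 5 was the lowest in both. The log2 fold change was 0.14 (SE 0.120, interval -0.12 to 0.40, edgeR adjusted p = 0.723). It moved to 0.06 without control 5, to 0.22 without control 4, to 0.21 without cKO 5 and to 0.07 with limma-voom.

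Uptake and chloride exit at the basolateral side were represented by Slc12a2 and Bsnd. Slc12a2 (ENSMUSG00000024597; chromosome 18, 57878678 to 57946821, plus strand) measured 635, 542, 657, 707 and 560 CPM in the controls and 730, 737, 666, 683 and 705 CPM in the libraries labelled cKO. All 5 of the latter lay above the control median and 2 above the control maximum, with the spread of that group (SD 30.2 CPM) below that of the controls (SD 68.5 CPM). The median over genes went the same way: over genes of at least 5 CPM the median coefficient of variation was 9.11% there and 12.8% in controls. This did not hold for every member, as Atp1b1 and Kcnj10 varied more under the cKO label. The log2 fold change was 0.18 (SE 0.0874, interval -0.00453 to 0.37, edgeR adjusted p = 0.527), and 0.09 with limma-voom.

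Bsnd (ENSMUSG00000025418; chromosome 4, 106483456 to 106492283, minus strand) measured 17.2, 17.0, 16.7, 19.0 and 12.5 CPM in the controls and 16.5, 19.7, 17.9, 20.4 and 15.4 CPM in the libraries labelled cKO. The groups overlapped, and control 5 was the lowest library. The log2 fold change was 0.12 (SE 0.121, interval -0.14 to 0.38, edgeR adjusted p = 0.760), 0.04 without control 5 and 0.07 without cKO 4.

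The beta subunits of the sodium pump, which carry the catalytic alpha subunit to the membrane, had log2 fold changes of opposite sign. Atp1b2 (ENSMUSG00000041329; chromosome 11, 69599736 to 69605942, minus strand) measured 166, 132, 182, 193 and 147 CPM in the controls and 181, 195, 208, 204 and 183 CPM in the libraries labelled cKO. All 5 of these exceeded the control median and 3 exceeded the control maximum. Its log2 fold change, 0.24 (SE 0.1003, interval 0.03 to 0.46), had the smallest p among the members, but the edgeR adjusted p was 0.463. With limma-voom it was 0.15.

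Atp1b1 (ENSMUSG00000026576; chromosome 1, 164437109 to 164458355, minus strand) measured 221, 213, 215, 213 and 196 CPM in the controls and 235, 165, 200, 164 and 195 CPM in the libraries labelled cKO. The controls varied little (coefficient of variation 4.36%), while the libraries labelled cKO varied more (15.4%): cKO 1 was above every control, and cKO 2, 4 and 5 were below every control. The log2 fold change was -0.14 (SE 0.0970, interval -0.35 to 0.07, edgeR adjusted p = 0.651), and it ran from -0.23 without cKO 1 to -0.09 without cKO 4. Atp1b1 shares 575 bases of exon with Nme7 on the opposite strand, which measured 3.28 ± 0.267 FPKM against 65.0 for Atp1b1.

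Kcnj10 (ENSMUSG00000044708; chromosome 1, 172341210 to 172374085, plus strand), the channel of intermediate cells, measured 34.6, 23.7, 28.0, 27.4 and 31.1 CPM in the controls and 25.9, 21.7, 36.3, 21.6 and 23.7 CPM in the libraries labelled cKO. Within the latter group cKO 3 was the highest of all 10 libraries, and cKO 2 and cKO 4 lay below every control. The values of cKO 5 and of control 2, the lowest control, both rounded to 23.7 CPM. The log2 fold change was -0.16 (SE 0.146, interval -0.48 to 0.15, edgeR adjusted p = 0.736). It was -0.32 without cKO 3, -0.09 without control 1 and -0.11 without cKO 4.

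**Figure D2:**
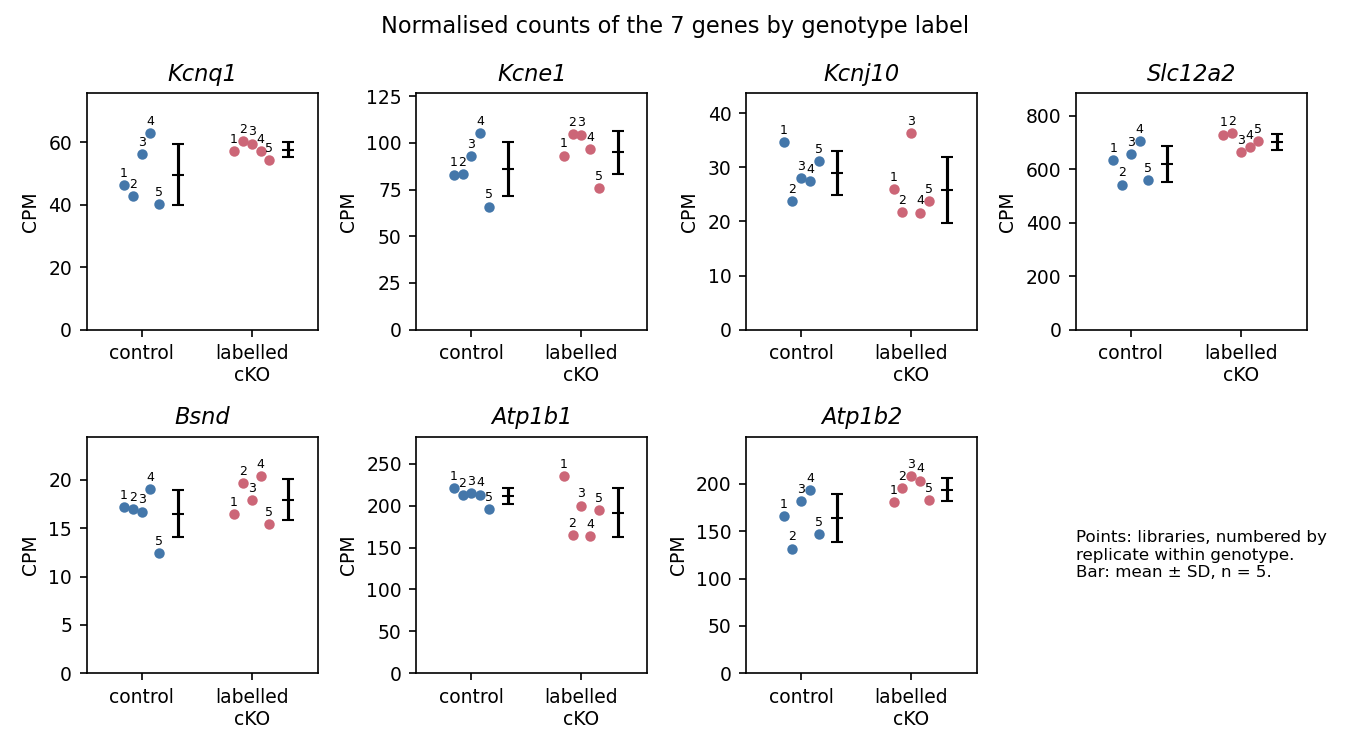
CPM of each member in controls (blue) and libraries labelled cKO (red), each point a library numbered by its replicate, with the mean ± SD of 5 libraries beside it; axes start at 0. Every panel overlaps between genotypes; cKO 3 is the highest library for Kcnj10 (36.3 CPM) and cKO 1 for Atp1b1 (235 CPM).

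The sequence just upstream of the annotated start was at hand for 2 of the 7 members, Kcnj10 and Atp1b1, which are also the pair with negative log2 fold changes; both windows are shown because a binding element of the receptor encoded by the floxed gene was searched in them. They come from the RefSeq promoter table on GRCm38.p6, are written 5′ to 3′ on the gene's own strand and cover the 250 bases before the start. Capitals mark CCAAT (or ATTGG, the same box on the other strand) and TATATA, which were chosen after the windows were read.

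Kcnj10, chr1:172340960-172341209, plus strand: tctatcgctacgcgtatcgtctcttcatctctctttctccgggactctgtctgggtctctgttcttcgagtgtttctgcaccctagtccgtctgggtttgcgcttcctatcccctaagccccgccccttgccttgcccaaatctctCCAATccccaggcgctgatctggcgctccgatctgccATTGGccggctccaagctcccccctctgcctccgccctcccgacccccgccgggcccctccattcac
Atp1b1, chr1:164458356-164458605, minus strand: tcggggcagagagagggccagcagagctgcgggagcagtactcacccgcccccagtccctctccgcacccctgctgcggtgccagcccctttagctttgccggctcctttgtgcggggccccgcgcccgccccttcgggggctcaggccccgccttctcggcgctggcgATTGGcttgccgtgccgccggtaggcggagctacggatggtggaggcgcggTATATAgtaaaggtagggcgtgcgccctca

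Neither window held the estrogen-related receptor element TCAAGGTCA, its core AAGGTCA, or the E-boxes CACGTG and CATGTG on either strand. Among the 32851 windows of the table, some genes having several, 0.387% held TCAAGGTCA, 4.08% AAGGTCA (which every TCAAGGTCA contains), 6.02% CACGTG and 12.3% CATGTG. The Kcnj10 window held CCAAT at positions -104 and -67 from the start and no TATATA. The Atp1b1 window held CCAAT at -81 and TATATA at -30. CCAAT was found in 33.8% of all windows and TATATA in 5.25%. Both windows were rich in G and C, at 62% for Kcnj10 and 70.4% for Atp1b1.

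Other genes of the same machinery were read from 3 lists of partners. Of 13 alpha, beta and FXYD subunits of the sodium pump, 10 were tested and 0 were called in either direction by edgeR (3 at an unadjusted p under 0.05), with 3 positive and 7 negative log2 fold changes and a median of -0.09. Atp1b3, another beta subunit, measured 63.7 FPKM on average and had a log2 fold change of -0.10 (edgeR adjusted p = 0.770), and Fxyd6 had one of 0.00252. Within the 3 abundant beta subunits, Atp1b2 made up 23.0 ± 3.65% of the summed FPKM in controls and 27.7 ± 2.02% under the cKO label (SD, n = 5 in each genotype). Atp1b1 made up 39.2 ± 1.69% and 36.2 ± 4.51%, and Atp1b3 the rest.

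Of 12 channel and chloride channel partners, 12 were tested and 0 were called by edgeR (2 at an unadjusted p under 0.05), 6 having positive and 6 negative log2 fold changes around a median of 0.01. Kcne4, an accessory subunit of KCNQ channels, measured 5.25 FPKM on average with a log2 fold change of 0.04, and Kcne5 (Kcne1l in the annotation) measured 3.29 FPKM with -0.02.

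Of 12 cation chloride cotransporters and the kinases that control them, 11 were tested and 0 were called by edgeR (1 at an unadjusted p under 0.05), with 6 positive and 5 negative values and a median of 0.01. Wnk4, a kinase upstream of NKCC1, had the largest positive value, 0.37 (SE 0.0975, interval 0.17 to 0.58, edgeR adjusted p = 0.149), and its exons overlap those of Gm11615 on the opposite strand. Stk39, the kinase SPAK that phosphorylates NKCC1, had 0.01 (interval -0.13 to 0.15). Wnk1 had 0.23 and the potassium chloride cotransporter Slc12a4 -0.04, whose exons overlap those of Gm16156. The summed CPM of this list was 719 in control 2 and 922 to 1037 in the other 9 libraries.

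**Figure D3:**
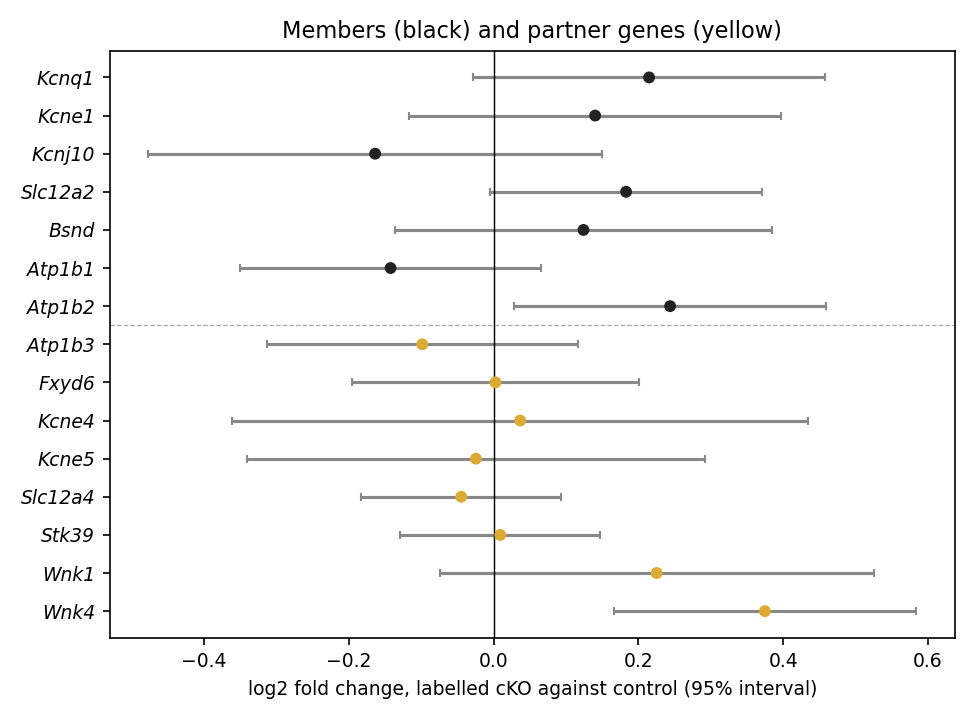
Log2 fold change, libraries labelled cKO against controls, with 95% interval for the 7 members (black) and the named partner genes (yellow); the vertical line is no difference. The members lie between -0.16 and 0.24, and no gene shown had an adjusted p under 0.05.

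Ratios within a library do not depend on how libraries are scaled, and 3 were compared. The ratio of Kcne1 to Kcnq1, both subunits of the apical channel, varied little: 2.29, 2.48, 2.11, 2.13 and 2.09 in the controls and 2.08, 2.21, 2.23, 2.15 and 1.78 in the libraries labelled cKO. Its log2 difference between the genotypes was -0.09 (exact two-sided permutation p = 0.325, adjusted over the 3 ratios 0.325), -0.05 without control 2 and -0.03 without cKO 5.

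The ratio of Atp1b2 to Atp1b1 was 0.567, 0.466, 0.638, 0.683 and 0.565 in the controls and 0.579, 0.892, 0.783, 0.939 and 0.709 in the libraries labelled cKO. In 4 of 5 libraries labelled cKO it exceeded every control, and cKO 1 lay among the controls. The log2 difference was 0.41 (exact two-sided permutation p = 0.0317, smallest possible 0.00794), with an adjusted value of 0.0952 over the 3 ratios, so it did not pass. Without cKO 1 the difference was 0.51 and the adjusted exact permutation p was 0.0476. The ratio of Kcnj10 to Kcnq1 was 0.456 ± 0.115 (SD, n = 5) in controls against 0.339 ± 0.0751 (SD, n = 5) for the cKO label, a log2 difference of -0.42 with an exact permutation p of 0.111 and an adjusted one of 0.167.

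**Figure D4:**
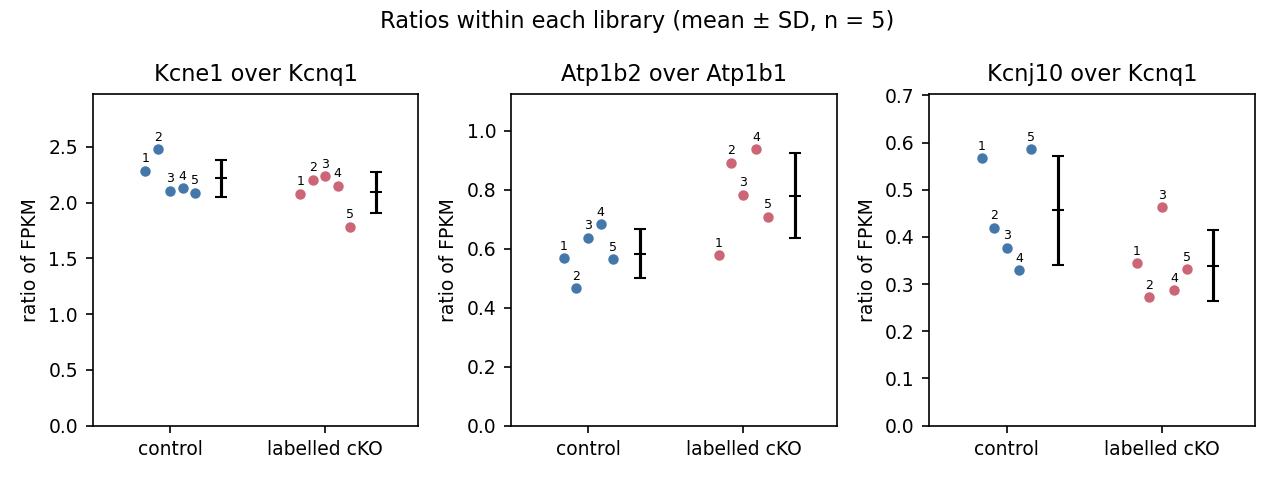
Ratio of FPKM between 2 members within each library, for controls (blue) and libraries labelled cKO (red), numbered by replicate, with mean ± SD of 5; axes start at 0. Kcne1 over Kcnq1 stays between 1.78 and 2.48, while Atp1b2 over Atp1b1 lies above 0.683, the control maximum, in 4 of 5 libraries labelled cKO.

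Co-variation across the 10 libraries was measured for all 21 pairs of members on log2 CPM, with the mean of each genotype removed so that a genotype shift could not create it. Over the 10 libraries together, Kcnq1, Kcne1, Slc12a2, Bsnd and Atp1b2 were positively correlated in every pair. Kcnj10 and Atp1b1 had weaker correlations with them, in both directions. The 10 pairs among the first 5 genes, a grouping made after the values were seen, had a Pearson r between 0.45 and 0.86 (median 0.72). The 10 pairs of these genes with Kcnj10 or Atp1b1 had values between -0.27 and 0.26 (median -0.02), and Kcnj10 with Atp1b1 had 0.42. Without the 2 libraries farthest from the median of the gene named first, Bsnd with Atp1b1 had -0.86 (unadjusted permutation p = 0.0351). In that check Kcnj10 with Bsnd had -0.70 (unadjusted permutation p = 0.106), and the remaining pairs of these 10 lay between -0.25 and 0.27. No r was computed within a genotype of 5 libraries, so the pattern is not shown for either label alone. For Kcnq1 the controls varied more (coefficient of variation 19.4%) than the libraries labelled cKO (4.21%) and weigh more in r. Under the cKO label, Slc12a2 was lowest in cKO 3, where Atp1b2 was highest. Libraries share depth and tissue makeup across all genes, so a correlation here does not separate the genes from the cells that hold them.

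Of the 21 pairs, 2 passed a permutation test adjusted over the pairs. Kcnq1 and Kcne1 had r = 0.84 (adjusted permutation p = 0.00882) and Spearman rho = 0.93 (adjusted permutation p = 0.0115). Only 0.134% of tested genes had an r to Kcnq1 at least as high as Kcne1 did. Without the 2 libraries farthest from the median of Kcnq1, r was 0.64 (unadjusted permutation p = 0.00700). The call was lost without control 4 (r = 0.78, adjusted permutation p = 0.166) and without cKO 5 (r = 0.91, adjusted permutation p = 0.0556).

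Kcne1 and Bsnd had r = 0.86 (adjusted permutation p = 0.0416) and rho = 0.67 (adjusted permutation p = 0.188). Without the 2 libraries farthest from the median of Kcne1, r fell to 0.50 (unadjusted permutation p = 0.166). Leaving out extreme libraries also narrows the range of Kcne1, so this check cannot show what the relation rests on. This pair no longer passed when any of 7 single libraries was dropped: without controls 1, 3, 4 and 5 (adjusted permutation p of 0.0519, 0.106, 0.166 and 0.167) and without cKO 1, 2 and 5 (0.141, 0.142 and 0.212). The r was 0.88, 0.87, 0.83 and 0.74 without those controls and 0.88, 0.85 and 0.83 without those cKO libraries. A lost call therefore did not always go with a lower r.

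Kcnq1 was also correlated with Atp1b2 (r = 0.86, rho = 0.87) and with Slc12a2 (r = 0.85, rho = 0.79), but the adjusted permutation p were 0.145 and 0.198 for r, and 0.175 and 0.188 for rho. Leaving out control 2 brought Kcnq1 with Atp1b2 and Kcne1 with Atp1b2 under the threshold (r = 0.90 and 0.89, adjusted permutation p = 0.0429 and 0.0405). With genotype means left in, 5 of 21 pairs passed, Kcnq1 with Kcne1, Slc12a2 and Atp1b2, Kcne1 with Bsnd, and Slc12a2 with Atp1b2, the largest r being 0.91 for Kcnq1 with Atp1b2 (adjusted permutation p = 0.00987).

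**Figure D5:**
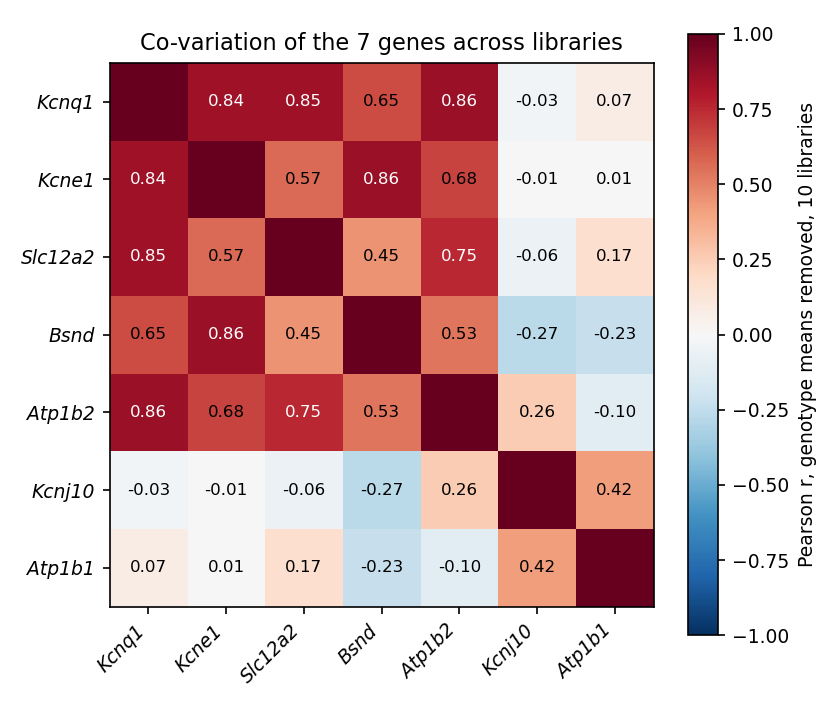
Pearson r between the 7 genes over the 10 libraries of both labels together, on log2 CPM after removing each genotype's mean, from -1 (blue) to 1 (red). Kcnq1, Kcne1, Slc12a2, Bsnd and Atp1b2 form a block between 0.45 and 0.86; Kcnj10 and Atp1b1 lie outside it, between -0.27 and 0.26 to those genes.

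The tested genes whose pattern over the 10 libraries was most like each member were named from 12523 genes with a mean of at least 5 CPM, by the same centred r and as a description. For Kcnq1 they were Fndc7 (0.95), Ddah1 (0.93) and Ezr (0.92). For Kcne1 they were Negr1 (0.95), Bcan (0.94) and Wscd1 (0.93). Bsnd was followed most closely by Cntn6 (0.96), Spink5 (0.92) and Crhbp (0.92), and Slc12a2 by A830082K12Rik (0.94), Irf2bpl (0.93) and Fbxw11 (0.93). Lgr6 (0.96) and Cobl (0.95) were among the closest to Atp1b2. The closest to Atp1b1 were Kcnc2 (0.97), Map7d2 (0.95) and Phyhipl (0.93), and to Kcnj10 they were Mgat3 (0.90), Tmcc3 (0.89) and Cers1 (0.89). No member was among the 3 closest genes of another member. Between 0.301% (Kcnq1) and 1.67% (Atp1b2) of tested genes had an r of at least 0.8 to a member.

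Marker levels of the cell types in the tissue were set beside the members after the member values were seen, as 70 relations of 7 members with the summed CPM of 10 marker lists. None passed after adjustment, the smallest adjusted permutation p for r being 0.250. Atp1b1 followed the sum of the 9 neuron markers (r = 0.86, unadjusted permutation p = 0.0250; rho = 0.83, unadjusted permutation p = 0.0212), with r = 0.61 without the 2 libraries farthest from the median. That sum was 1014 to 1225 CPM in controls and 572 to 1265 CPM in the libraries labelled cKO, where cKO 1 was the highest and cKO 4 the lowest, as for Atp1b1. Of these markers 2, Elavl4 and Slc17a7, named after their values were seen, were called lower and none was at 0. The part of neuronal content in the Atp1b1 values was not tested.

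Atp1b2 ran opposite to the sum of 7 erythroid markers (r = -0.87, unadjusted permutation p = 0.00667; rho = -0.89, unadjusted permutation p = 0.00853), with r = -0.77 without the 2 libraries farthest from the median. That sum was 714 to 2968 CPM in controls, highest in control 2 and control 5, and 444 to 1296 CPM in the libraries labelled cKO. Kcnq1 and Slc12a2 were likewise lowest in those 2 controls; the part of blood content was not tested. The highest r of Atp1b2 was with the 8 marginal cell markers (0.80, unadjusted permutation p = 0.0220; rho = 0.73, unadjusted permutation p = 0.0517), and r was 0.52 without the 2 libraries farthest from the median. With that list r was 0.67 for Slc12a2, 0.56 for Kcnq1, 0.18 for Kcne1 and 0.16 for Bsnd (unadjusted permutation p of 0.107, 0.254, 0.667 and 0.711). Kcnq1 and Kcne1 had their highest r with the 12 intermediate cell and melanocyte markers (0.74 and 0.77, unadjusted permutation p = 0.0211 and 0.0197; rho = 0.76 and 0.83, unadjusted permutation p = 0.0282 and 0.00784). Of these 12 markers 0 were called by edgeR (2 at an unadjusted p under 0.05), with 10 positive and 2 negative log2 fold changes (median 0.14). Their summed CPM was 708 to 866 in controls and 652 to 799 under the cKO label. Between the labels the sum therefore did not move as most of its genes did. Kcnj10, the intermediate cell channel, had r = 0.04 and rho = -0.09 with that list. Its highest r was with the 7 markers of brain and brain glia (0.63, unadjusted permutation p = 0.0613; rho = 0.67, unadjusted permutation p = 0.0516), and r was 0.45 without the 2 libraries farthest from the median. Of these 7 markers 3 were called lower, 6 had negative log2 fold changes (median -0.89) and none was at 0, while their summed CPM was 92.9 to 151 in controls and 117 to 169 under the cKO label. Between the labels the mean sum rose from 131 to 149 CPM, in the direction of the 1 marker with a positive log2 fold change (0.36) and against the other 6. The part of brain tissue in the Kcnj10 values was not tested. The marginal cell list, 8 genes with 0 edgeR calls and 2 at an unadjusted p under 0.05, had 8 positive log2 fold changes (median 0.24) and a sum of 426 to 670 CPM in controls and 628 to 798 CPM in the libraries labelled cKO.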

How the data were processed

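The authors deposited raw counts for every Ensembl identifier and, separately, FPKM (fragments scaled by transcript length and library size); per the submitters' processing notes, STAR 2.5, HTSeq and DESeq2 were used with build mm10, and the annotation and use of strand are not given in the sources used here. The deposited FPKM equalled the counts divided by 1 length per gene and 1 factor per library, and these lengths lay within 0.1% of merged exons of GENCODE M21 (GRCm38) for 95.3% of 13928 genes whose counts all reached 50, so symbols and positions come from it; it held 54495 of 54532 IDs. Replicates are single animals per the labels.

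Counts were filtered with filterByExpr (minimum count 10), scaled by TMM and tested with edgeR 4.0.16 (quasi-likelihood F-test, robust, genotype only), Benjamini-Hochberg adjusted over all tested genes; the fit was tested on simulated data. Intervals use the fit's t distribution. Log2 CPM used a prior count of 2. Correlations used 100000 permutations within genotype (across all libraries where genotype means stay in); ratios used all 252 assignments. Alternatives used DESeq2 1.42.0, limma 3.58.1, other factors and filters, a replicate block, log2(FPKM + 1) or (FPKM + 0.1), prior count 0.5, an adjusted p of 0.1, and leaving out each library.

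The members and lists were chosen with earlier results of these data known. Named genes are the 7 members, Esrrg, the 4 most abundant genes of each partner list (none was called) and the 3 genes most like each member; some of these are not reported here. Genes that overlap a named gene, and the called neuron markers Elavl4 and Slc17a7, were named outside that rule after their values were seen.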

Additional observations from a re-analysis of the deposited data

Results flagged for a closer look

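Each of 24 measures (the 7 members, 3 ratios and 14 summed lists) was examined in both genotypes for a library standing apart, with the limit of Dixon's 95% critical value for 5 values (0.71 of the range). Chance flags about 1 in 20 groups (5%), which for the 48 groups is 2.4. The 2 cases seen were both in control 2 and neither in a member. The summed CPM of the 12 channel and chloride partners was 123 in control 2 and 169 to 183 in the other controls, a gap of 0.767 of the range. The summed CPM of the 12 cation chloride cotransporters and kinases was 719 in control 2 and 938 to 977 in the other controls, a gap of 0.850 of the range. Among the members, control 2 was the lowest control for Slc12a2, Atp1b2 and Kcnj10, but not far enough from the others to be flagged.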

How the results depend on the processing

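All 7 members kept the sign of their log2 fold change in each of 20 alternative fits, 10 with another tool, scaling, filter or block and 10 with 1 library left out, and 0 members were called in any of them or at an adjusted p under 0.1. The adjusted p closest to the threshold was 0.247, for Atp1b2 with the replicate number as a block. The number of genes called over all tested genes was 111; it was 288 with DESeq2 and 436 with limma-voom, and it ran from 52 without control 3 to 197 without control 2, with 62, 69 and 73 without controls 1, 4 and 5 and 62, 67 and 55 without cKO 2, 4 and 5. The cause was not tested. The log2 difference in the ratio of Atp1b2 to Atp1b1 ran from 0.33 to 0.51 with 1 library left out and passed only without cKO 1. The number of correlated pairs was 2 of 21 and ran from 0, without control 4 or without cKO 5, to 4, without control 2; it was 1 without control 1, 3 or 5 or cKO 1 or 2. With the replicate block 101 genes and 0 members were called. The replicate numbers were not treated as pairs: same-numbered libraries deviated together with correlations across genes of 0.02 to 0.18, above 0.1 in 2 of 5 pairs, and 6 of 10 libraries were closest to their own number. With 5 libraries a group, the members' 95% intervals reached from 0.718-fold at the lowest, for Kcnj10, to 1.37-fold at the highest, for Kcnq1 and Atp1b2.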

Other observations

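Markers of cells around the secreting layer gave these values, as descriptions. The 4 basal cell markers had 0 edgeR calls (2 at an unadjusted p under 0.05) and a summed CPM of 725 to 878 in controls and 886 to 1038 in the libraries labelled cKO, with 3 positive and 1 negative log2 fold change (-0.06 to 0.35). Of the 7 spiral ligament fibrocyte markers 0 were called by edgeR (2 at an unadjusted p under 0.05), with 6 positive log2 fold changes and 1 negative (-0.79). They summed to 2591 to 3108 CPM in controls and 2938 to 3445 CPM in the libraries labelled cKO. Bsnd followed this sum across libraries (r = 0.86, unadjusted permutation p = 0.00794, and rho = 0.87, unadjusted permutation p = 0.00651). Its r was 0.70 without the 2 libraries farthest from the median, and the relation did not pass over 70 relations (adjusted permutation p = 0.250). Bsnd had a similar r with the 4 spindle and root cell markers (0.83, unadjusted permutation p = 0.0107, and rho = 0.68, unadjusted permutation p = 0.0289). That r was 0.52 without the 2 farthest libraries, and its adjusted permutation p was also 0.250. The 9 Schwann cell and satellite glia markers had 0 edgeR calls (5 at an unadjusted p under 0.05), 7 negative log2 fold changes and a median of -0.47, and Kcnj10 and this list had r = 0.47 (unadjusted permutation p = 0.299; rho = 0.22, unadjusted permutation p = 0.569; r = -0.44 without the 2 libraries farthest from the median).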
